A study of Mus musculus with 2 samples.

Results

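Single mouse muscle stem cells grown for 96 h with galactose were compared with cells grown for 96 h with high glucose. The cells were the 121 galactose wells of plate 2 and the 113 high glucose wells of plate 1, chosen by the medium given for each well and by a minimum of 500 gene counts and 250 detected genes. They made up 234 of the 456 wells of the series that met this minimum. The 114th high glucose well held 8 counts and was left out. All cultured cells were kept in DMEM with bFGF (2.5 ng/ml), chick embryo extract (0.05%), fetal bovine and horse serum (10% each), sodium pyruvate (1 mM) and antibiotics. The sugar was 25 mM glucose in the high glucose medium, 5 mM glucose in the low glucose medium and 10 mM galactose in the galactose medium. The sources used here give no mouse strain, age or number of animals. Each medium was read in 1 part of 1 plate, so there is 1 library per medium.

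Muscle stem cells rest beneath the sheath of the muscle fibre until injury, then divide as myoblasts and either fuse into new fibres or return to rest. Glucose enters glycolysis directly, whereas galactose is first turned into glucose phosphate by the slow enzymes of the Leloir pathway, so that cells given galactose are commonly taken to lean on mitochondrial respiration for ATP. Citrate leaving the mitochondria supplies the acetyl groups of histone acetylation, and the study's title connects metabolism with that modification and with self-renewal.

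Medium and plate cannot be told apart in this comparison. Galactose wells shared plate 2 and its library with the 120 low glucose wells, and high glucose wells shared plate 1 with 102 wells of freshly isolated (quiescent) cells. A difference between galactose and high glucose that low glucose wells showed to the same degree can therefore not be assigned to the medium. The low glucose values are set beside the results for this reason. The comparison of galactose with high glucose and that of low glucose with high glucose share the high glucose counts, and the comparisons with galactose in them share the galactose counts.

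The median gene counts per well were 6747 in high glucose (range 868 to 18844), 14496 in galactose (1711 to 44097) and 13371 in low glucose (2616 to 39631). Summed over wells they came to 887611, 2035682 and 1734279. The median number of genes was 3191, 4835 and 4380 per well. Counts of spike-in RNA (the ERCC species in the tables) differed in the same way, with medians of 131, 295 and 259.5 counts. The median of gene counts per spike-in count was 57.0 in high glucose, 47.8 in galactose and 47.7 in low glucose, so that galactose stood at 0.839 of high glucose and at 1.00 of low glucose. The medians of plate rows overlapped, from 47.7 to 65.8 in high glucose and from 39.4 to 53.5 in galactose. Of the well barcodes, 104 were used in both the galactose and the high glucose wells, in the same plate positions, and 0 were shared by low and high glucose wells.

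**Figure D1:**
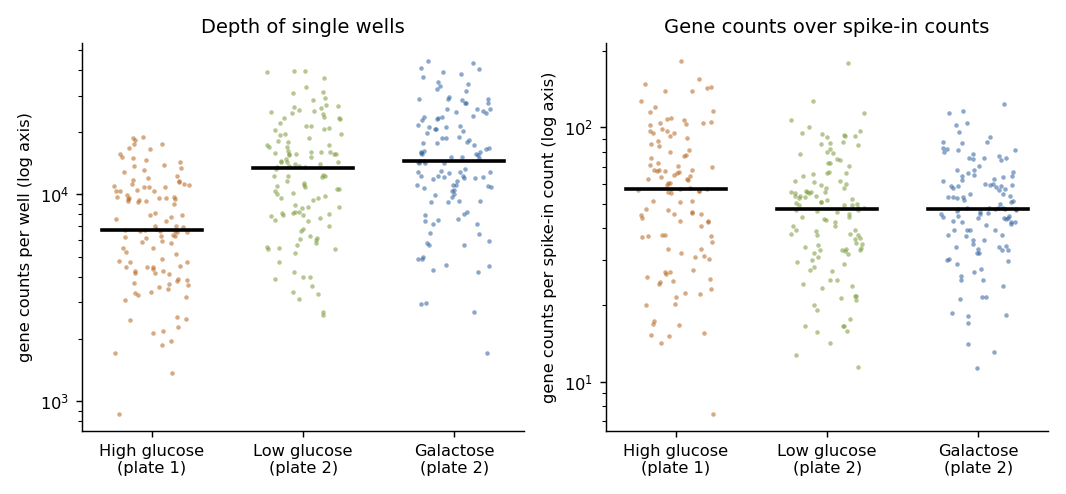
Each point is 1 well, with the condition on the x axis; the left panel shows gene counts and the right panel gene counts per spike-in count, both on log axes, and the black lines are medians. Both media of plate 2 sit higher in depth than high glucose (medians 13371 and 14496 against 6747), while the ratio to spike-ins is close in the 2 media of plate 2 (47.7 and 47.8) and 57.0 in high glucose.

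The wells carried the markers of muscle stem cells and myoblasts. At least 3 of the 13 myogenic markers looked up had a count in 97 of the 113 high glucose wells, 120 of the 121 galactose wells and 118 of the 120 low glucose wells. Their summed level was 2009.9 CPM (counts per 1000000 gene counts of the pool) in high glucose, 2146 in galactose and 2117 in low glucose. Markers of endothelial cells, smooth muscle and fibro-adipogenic cells were low, and higher in high glucose than in galactose. The 10 endothelial markers summed to 57.5 CPM in high glucose (plate rows 12.1 to 84.8), 8.65 in low glucose and 7.86 in galactose (0 to 18.8). Among them Pecam1 stood at 16.9 CPM in high glucose and at 0.491 in galactose, and Cdh5 at 4.51 CPM and at 0 counts. The 10 markers of smooth muscle and pericytes summed to 231 CPM in high glucose (152 to 293), 62.9 in galactose (47.5 to 74.4) and 75.5 in low glucose, with Abcc9 and Cnn1 at 0 in both media compared. The 5 fibro-adipogenic markers that could be looked up, of 11 listed, summed to 135 CPM (87.7 to 189), 39.2 and 32.4 (26.8 to 52.2) (high glucose, low glucose, galactose), nearly all of it Col3a1, and Dcn was at 0 in both. At least 3 endothelial markers had a count in 2 high glucose wells and at least 3 smooth muscle markers in 6, against 0 and 1 galactose wells. The part of these cells in the results was not tested, and the lower genes concerned are given below with and without those wells. The freshly isolated wells that shared plate 1 with high glucose held 141, 637 and 1091 CPM of the same lists. The remaining lists summed to under 30 CPM in each cultured medium: 6.76 and 8.84 CPM for 2 immune markers in high glucose and galactose, 10.1 and 13.8 for 3 glial, 7.89 and 9.33 for 2 tenocyte and 28.2 and 13.8 for 5 myofibre markers, with none of the 5 erythroid markers looked up. Col3a1 moved to 0.0544 after thinning.

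Galactose wells differed from high glucose wells in many genes, and low glucose wells differed from high glucose wells by nearly as much. Among genes with a mean of the 2 pools of at least 50 CPM, 76 (1.86%) were at least 2-fold higher and 116 (2.83%) at least 2-fold lower in galactose. Higher genes thus made up 39.6% of both, a share that became 65.5% with TMM scaling, 57.6% with median-of-ratios scaling and 11.1% with scaling by spike-ins, which moved the median of all genes by 0.13, 0.08 and -0.21 on the log2 scale. A gene is called higher or lower below when its ratio was at least 1.5 and the 95% interval of the ratio left out 1. Where another setting ended the call of a named gene or moved its ratio by over 1.5 times, that ratio is given in the paragraph that first names the gene. Loss of a call after thinning, with no such move, is not listed, even where other settings that ended the call are given. Thinning ended the call of 61 of the 112 named genes called. Wells of matched depth are those with 5000 to 15000 counts. By this rule 437 genes (10.7%) were higher and 460 (11.2%) lower. Intervals cover counting error only, and with 1 library per medium there was no test and no p-value. The same counts for low against high glucose were 349 and 396, and for galactose against low glucose, within plate 2, they were 10 and 11. The SD of the log2 ratios over these genes was 0.49 for galactose against high glucose, 0.45 for low against high glucose and 0.18 for galactose against low glucose.

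Spike-in species, which carry no biology, also differed between the plates. Of 27 species with at least 50 summed counts, 4 (14.8%) met the same call rule between galactose and high glucose, with ratios from 0.450 to 2.60 and an SD of 0.46 beyond counting error on the log2 scale. For genes that SD was 0.46. Between galactose and low glucose, 0 of 29 species met the rule, and between high glucose and freshly isolated wells of plate 1, 0 of 20 did. With 19 species of at least 150 counts the plates still differed in 3 (15.8%). The part of this plate difference in any single gene was not tested. The 6 plate rows of each medium were used as a second measure of spread, although rows are parts of 1 library and not replicates: the rows of galactose lay wholly above those of high glucose for 234 of these genes (5.71%) and wholly below for 208 (5.08%).

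**Figure D2:**
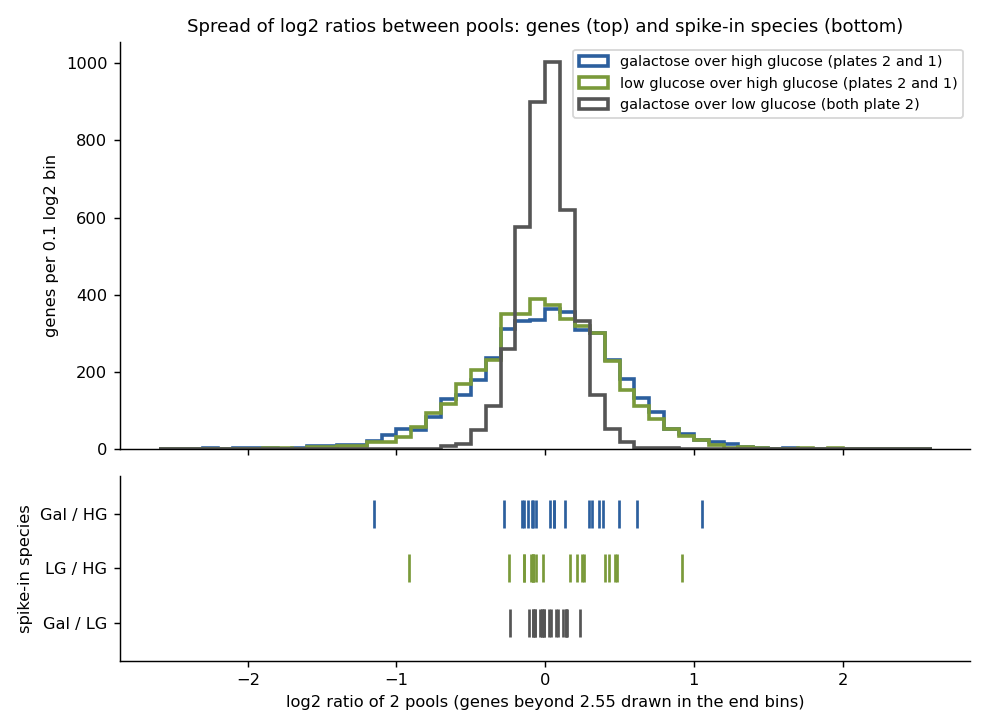
The upper panel counts genes (y axis) by the log2 ratio of their CPM in 2 pools (x axis), for genes of at least 50 CPM; each tick of the lower panel is 1 spike-in species with at least 150 summed counts, on the same axis. Both comparisons across plates are wide (SD 0.49 and 0.45) and the one within plate 2 is narrow (0.18), for genes as for spike-ins.

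The genes that stood highest in galactose included enzymes, chromatin proteins and cytoskeletal proteins. Ass1 (ENSMUSG00000076441), the urea cycle enzyme that joins citrulline and aspartate, was at 28.2 CPM in high glucose, 120.4 in galactose and 111 in low glucose, and its ratio of galactose to high glucose was 4.27 (2.83 to 6.73). Its plate rows had a lowest, median and highest value of 6.04, 21.4 and 57.0 CPM in high glucose and 68.0, 117 and 158 CPM in galactose. The rows did not overlap, and low glucose stood with galactose. Hmga2 (ENSMUSG00000056758), a chromatin protein of growing and fetal cells, was at 261 CPM in high glucose, 673 in galactose and 518 in low glucose, a ratio of 2.57 (2.24 to 2.97). The lowest, median and highest rows of Hmga2 were 183, 257 and 314 CPM in high glucose and 598, 643 and 803 CPM in galactose, again with no overlap. After every well was thinned to 1000 counts, Hmga2 had a count in 19.6% of 112 high glucose wells (12.7 to 28.2) and in 43.0% of 121 galactose wells (34.0 to 52.3). Ass1 moved to 10.2 after thinning.

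Actin-linked proteins were among the higher genes. Lasp1, an actin-binding scaffold, was at 144 CPM in high glucose, 404 in galactose and 366 in low glucose, a ratio of 2.80 (2.32 to 3.40). S100a6, a small calcium-binding protein, was at 84.5 CPM in high glucose, 268 in galactose and 207 in low glucose, a ratio of 3.17 (2.49 to 4.10). For both, every galactose row lay above every high glucose row, and for S100a6 galactose also stood above low glucose, at 1.30 (1.13 to 1.48) times its level. Ccnd1, the cyclin of the G1 phase, was at 98.0 CPM in high glucose, 242 in galactose and 205 in low glucose (ratio 2.47, 1.96 to 3.14), with rows that overlapped (47.1 to 181 against 169.6 to 298 CPM). Cxcl12, a chemokine, was at 114 CPM in high glucose, 275 in galactose and 221 in low glucose (ratio 2.42, 1.95 to 3.02). The rest of the 15 genes whose interval lay farthest above 1 were Gipc1 (4.07), Taf6l (3.65), Fundc2 (3.05), Banf1 (2.35), Samd1 (3.15), Cox15 (2.82), Nek7 (2.50), Emp3 (2.77) and Tcof1 (2.27), each given as its ratio of galactose to high glucose. Cox15 takes part in making heme for cytochrome oxidase, Fundc2 is a protein of the outer mitochondrial membrane, and Tcof1 serves the making of ribosomal RNA. In all 15, low glucose also stood above high glucose, at ratios from 1.94 to 3.95. S100a6 lost its call at 1.85 after thinning, and Gipc1 moved to 10.2 after thinning. Samd1 lost its call at 2.04 after thinning, and Nek7 moved to 4.51 after thinning.

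Tnnt2, cardiac troponin T, which embryonic and regenerating muscle also makes, had 1 count in the high glucose pool (1.13 CPM), 94 in galactose (46.2 CPM) and 58 in low glucose (33.4 CPM). The ratio was 41.0 (7.18 to 1636) for galactose against high glucose and 1.38 (0.985 to 1.95) for galactose against low glucose. Its 6 high glucose rows reached at most 6.33 CPM and its galactose rows began at 33.2 CPM.

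The genes that stood lowest in galactose included HSP70 chaperones and genes with high levels in freshly isolated cells. Hspa1b and Hspa1a, the inducible HSP70 chaperones, were at 767 CPM in high glucose, 203 in galactose and 212 in low glucose, and at 288 CPM in high glucose, 90.4 in galactose and 98.0 in low glucose. The ratios of galactose to high glucose were 0.265 (0.234 to 0.300) and 0.313 (0.258 to 0.380). The sequences of the 2 genes are nearly identical, so their reads may have been split between them. Rows of Hspa1b ran from 526 to 1687 CPM in high glucose and from 145 to 259 in galactose, with no overlap. In wells of 5000 to 15000 counts alone, the ratio of Hspa1b was 0.531 and that of Hspa1a turned to 1.26. Hspa1b had a count in 49.1% of 112 high glucose wells (39.5 to 58.7) and in 17.4% of 121 galactose wells (11.1 to 25.3) after thinning. Hspa8, the constitutive HSP70, was at 1070.3 CPM in high glucose, 528 in galactose and 646 in low glucose (ratio 0.493, 0.452 to 0.539), and Hspa9, the mitochondrial HSP70, at 101 CPM in high glucose, 16.7 in galactose and 27.7 in low glucose (ratio 0.165, 0.108 to 0.247). Hspa1b moved to 0.168 after thinning and 0.531 in wells of matched depth, and Hspa9 moved to 0.0926 after thinning and 0.108 in wells of matched depth.

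Several genes of the same group had their highest levels in the freshly isolated wells that shared the plate with high glucose. Gpx3, a secreted glutathione peroxidase, was at 386 CPM in high glucose, 91.4 in galactose and 94.6 in low glucose, and at 3499 CPM in freshly isolated cells. Its rows had a lowest, median and highest value of 242, 391 and 481 CPM in high glucose and 70.9, 77.1 and 161 CPM in galactose. Pde4b, a phosphodiesterase for cyclic AMP, was at 275 CPM in high glucose and 103 in galactose and at 1876 in freshly isolated cells. Zfp36, which destabilises short-lived mRNAs, stood at 107 CPM in high glucose and 30.0 in galactose and at 912 in freshly isolated cells, and the kinase Pim1 at 162, 35.4 and 623 CPM in the same order. The matrix genes Col3a1 (fibrillar collagen) and Timp3 (a protease inhibitor) followed: 126, 30.9 and 873 CPM for Col3a1, and 93.5, 6.39 and 299 CPM for Timp3, whose ratio of galactose to high glucose was 0.0683 (0.0349 to 0.123). Hspa1b stood at 5695 CPM in freshly isolated cells. Whether RNA of the freshly isolated wells reached the high glucose wells of that plate was not tested. The ratios of galactose to low glucose were 0.730 for Pim1, 0.615 for Timp3, 0.966 for Gpx3, 1.02 for Pde4b, 0.838 for Zfp36 and 0.813 for Col3a1, each with an interval that held 1. Gpx3 moved to 0.0681 after thinning, and Zfp36 moved to 0.185 after thinning. Pim1 moved to 0.139 after thinning and 0.465 in wells of matched depth, and Timp3 moved to 0.231 after thinning and 0.202 in wells of matched depth.

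Acta2 and Tagln, smooth muscle actin and its partner transgelin, are markers of smooth muscle cells and also of contractile fibroblasts. Acta2 was at 162 CPM in high glucose, 53.1 in galactose and 62.3 in low glucose (ratio 0.327, 0.252 to 0.423). Tagln had 36 counts in high glucose (40.6 CPM) and 3 in galactose (1.47 CPM), a ratio of 0.0363 (0.00716 to 0.115). Without the wells that held 3 or more markers of another cell type, the ratios were 0.326 for Acta2, 0.0295 for Tagln, 0.260 for Col3a1 and 0.0706 for Timp3. Of the 116 genes at least 2-fold lower, 66 had no gene name or only a provisional one (Gm numbers, Rik clones, pseudogenes), against 5 of the 76 higher. The share of such genes among all genes tested is not given here, so these counts do not show which direction is unusual. Tagln moved to no galactose counts to 0.0550 with equal weight per well, after thinning, in wells of matched depth and without galactose row H.

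**Figure D3:**
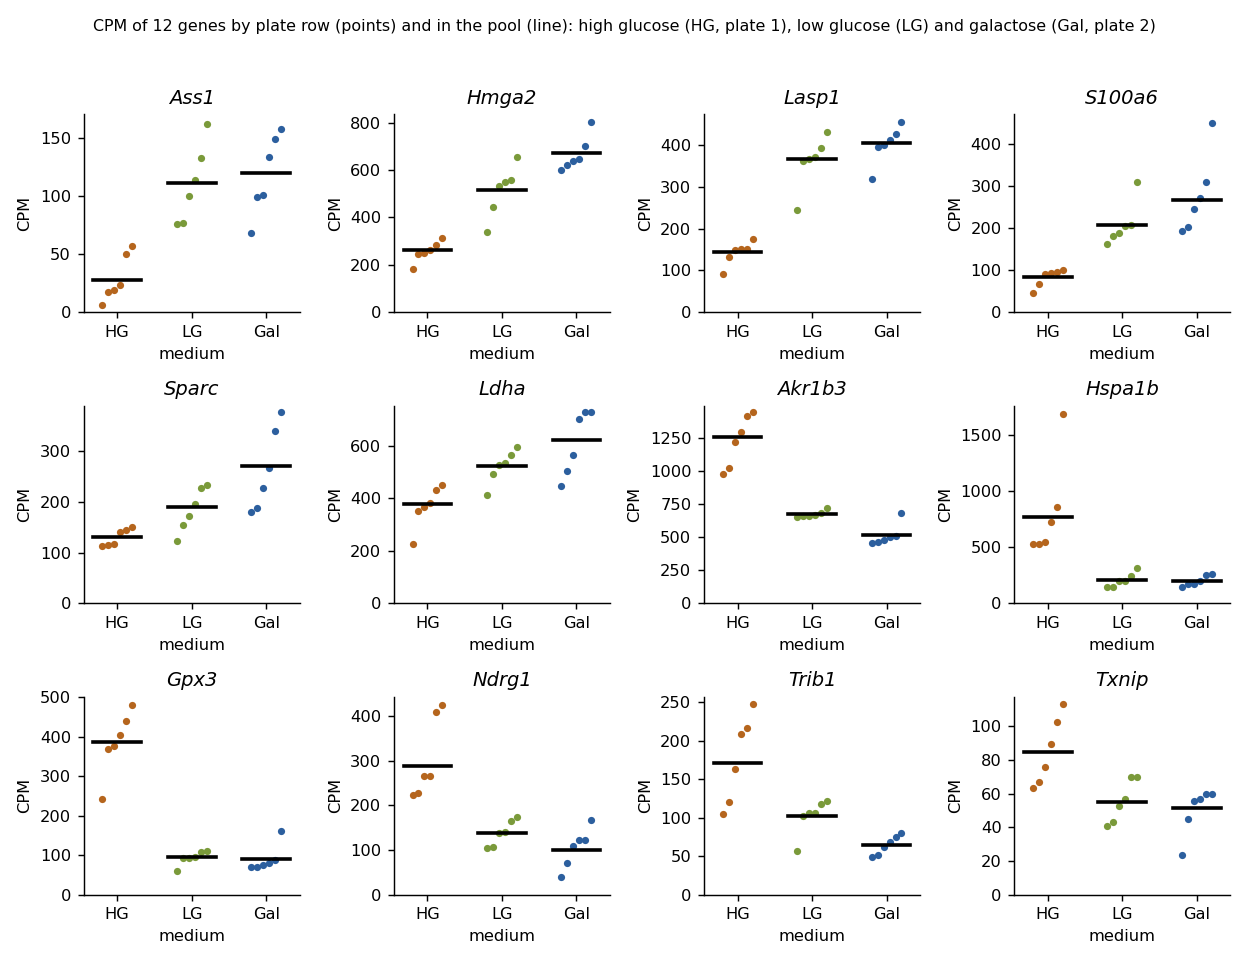
For 12 genes, each point is the CPM of 1 plate row (y axis) in high glucose (HG, plate 1), low glucose (LG, plate 2) and galactose (Gal, plate 2), and each black line the CPM of the pool. Ass1, Lasp1, Hspa1b and Gpx3 have low glucose near galactose, whereas Hmga2, Sparc, Akr1b3, Ndrg1 and Trib1 go on from low glucose to galactose.

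Among the genes that handle galactose, aldose reductase was lower. Akr1b3 (ENSMUSG00000001642), the aldose reductase that turns glucose into sorbitol and galactose into galactitol, was at 1261 CPM in high glucose, 518 in galactose and 678 in low glucose, a ratio of 0.411 (0.377 to 0.447) to high glucose and 0.764 (0.702 to 0.830) to low glucose. Its rows had a lowest, median and highest value of 980.4, 1263 and 1450.2 CPM in high glucose, 460.3, 490.2 and 682 CPM in galactose and 654, 667 and 723 CPM in low glucose. The galactose rows lay below all high glucose rows and overlapped those of low glucose. Of the 9 genes of galactose use and polyol metabolism measured (a mean of at least 10 CPM), the count was 1 higher and 1 lower, the latter Akr1b3; the median log2 ratio was 0.03 and became -0.18 with scaling by spike-ins. Over all 8894 genes with a mean of at least 10 CPM, 9.46% were called higher and 12.1% lower, the background for each list below, and the median log2 ratio was -0.01. Galk1, the galactokinase that opens the pathway, was at 20.3 CPM in high glucose and 27.0 in galactose (ratio 1.33, 0.770 to 2.41), Galt, the uridylyltransferase, at 2.25 CPM in high glucose and 7.37 in galactose (ratio 3.27, 0.761 to 29.5), and Ugp2, which makes UDP-glucose, at 39.4 CPM in high glucose and 29.5 in galactose (ratio 0.747, 0.485 to 1.17). None of these 3 was called.

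Txnip (ENSMUSG00000038393) and Arrdc4 are arrestin-like proteins that restrain glucose uptake, and both are textbook targets of the sugar-sensing factors MondoA and ChREBP. These factors bind the carbohydrate response element, a pair of E-box-like blocks CACGNG set 5 bases apart. The promoters are shown because Txnip was the only lower gene among the measured genes of these factors. They run from 250 bases before to 50 after the start site, from RefSeq on GRCm38.p6, at chr3:96557707-96558006 on the plus strand for Txnip and chr7:68749189-68749488 on the minus strand for Arrdc4, each written 5′ to 3′ along its gene. Capitals mark the match to the carbohydrate response element in Txnip and the E-box CACGTG in Arrdc4.
Txnip: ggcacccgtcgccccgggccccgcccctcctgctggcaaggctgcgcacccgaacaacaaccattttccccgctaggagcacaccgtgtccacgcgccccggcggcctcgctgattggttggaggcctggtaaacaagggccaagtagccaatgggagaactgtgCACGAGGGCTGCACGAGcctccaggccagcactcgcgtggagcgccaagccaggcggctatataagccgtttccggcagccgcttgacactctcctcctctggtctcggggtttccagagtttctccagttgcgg
Arrdc4: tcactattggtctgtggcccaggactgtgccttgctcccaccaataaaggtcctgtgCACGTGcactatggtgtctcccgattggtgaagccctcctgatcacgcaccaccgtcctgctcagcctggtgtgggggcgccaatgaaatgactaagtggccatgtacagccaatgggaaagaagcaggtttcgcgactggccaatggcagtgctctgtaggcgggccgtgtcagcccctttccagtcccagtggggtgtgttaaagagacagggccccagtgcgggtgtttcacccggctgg
The longer match in Txnip began 85 bases before the start site, and such a match on either strand was found in 16 of 32851 promoter windows (0.0487%). The E-box of Arrdc4 began 193 bases before the start site, and 2349 windows (7.15%) held one. A match is a description of the letters and does not show binding. Txnip lost its call at 0.670 with TMM scaling, 0.386 after thinning and 0.645 in wells of matched depth.

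Txnip was lower in galactose, and as low in low glucose. It was at 84.5 CPM in high glucose, 51.6 in galactose and 54.8 in low glucose, with ratios of 0.610 (0.450 to 0.832) for galactose against high glucose, 0.648 (0.474 to 0.890) for low against high glucose and 0.942 (0.707 to 1.26) for galactose against low glucose. The rows of Txnip had a lowest, median and highest value of 63.3, 82.9 and 113 CPM in high glucose and 23.7, 56.3 and 59.6 CPM in galactose, without overlap. After thinning it had a count in 10.7% of 112 high glucose wells (5.66 to 18.0) and in 4.13% of 121 galactose wells (1.36 to 9.38), intervals that overlap. Arrdc4 was at 7.89 CPM in high glucose and 8.84 in galactose, a ratio of 1.12 (0.447 to 3.18) from 7 and 18 counts, and a difference as large as that of Txnip was not detectable at this depth. Of the 6 measured MondoA and ChREBP genes, Txnip was lower and Mlx, the partner of both factors, higher (ratio 1.60, 1.26 to 2.04); the median log2 ratio of -0.10 became 0.03 with TMM scaling. Mlx lost its call at 1.38 with spike-in scaling, 1.48 with equal weight per well and 1.497 without high glucose row K.

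Glycolysis showed 3 higher and 1 lower of 13 measured genes, with a median log2 ratio of 0.15 that became -0.06 with scaling by spike-ins. Ldha, the lactate dehydrogenase subunit that favours lactate, was at 377 CPM in high glucose, 620.4 in galactose and 524 in low glucose, a ratio of 1.64 (1.46 to 1.86) to high glucose and 1.18 (1.09 to 1.29) to low glucose. Its rows overlapped narrowly, at 226 to 450.2 CPM in high glucose and 448 to 728 in galactose, and its ratio was 1.42 with scaling by spike-ins, under the fold needed for a call. Tpi1, triosephosphate isomerase, was at 19.2 CPM in high glucose, 46.2 in galactose and 65.7 in low glucose (ratio 2.41, 1.43 to 4.31), with low glucose above galactose. Pkm (1.11) and Eno1 (1.35), pyruvate kinase and enolase, had ratios under 1.5. The glucose transporter Slc2a1 (38.3 CPM in high glucose and 34.4 in galactose, ratio 0.898, 0.588 to 1.39) and hexokinase Hk1 (113 CPM in high glucose and 86.9 in galactose, ratio 0.772, 0.601 to 0.996) were not called. Hk2, Pfkp and Pdk1 had 0, 2 and 0 counts in high glucose and 8, 0 and 1 in galactose, too few for a ratio. Ldha lost its call at 1.42 with spike-in scaling and 1.33 in wells of matched depth and moved to 2.50 after thinning, and Tpi1 lost its call at 0.463 after thinning and 2.05 in wells of matched depth.

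The pentose phosphate pathway, which makes NADPH and ribose, had 1 higher and 0 lower of 8 measured genes. Its medians were 0.50, 0.43 and 0.06 (log2) for galactose against high glucose, low against high glucose and galactose against low glucose. The first of these became 0.08 in wells of matched depth. Taldo1, transaldolase, was higher (125 CPM in high glucose, 210.2 in galactose and 186 in low glucose, ratio 1.68, 1.36 to 2.09), and Pgd, 6-phosphogluconate dehydrogenase, stood just under the call at 1.49 (1.19 to 1.87). At the entry of pyruvate into mitochondria the count was 0 higher and 1 lower of 9, with a median of -0.02 that became 0.11 with TMM scaling. The lower gene was Pdp1, a phosphatase that activates pyruvate dehydrogenase, at 21.4 CPM in high glucose, 9.33 in galactose and 19.6 in low glucose (ratio 0.436, 0.218 to 0.870), while low against high glucose was 0.916 (0.508 to 1.70). Pdha1, a subunit of pyruvate dehydrogenase, was at 141 CPM in high glucose, 211 in galactose and 205 in low glucose, just short of the fold for a call, and Pdk4, the kinase that inhibits the enzyme, was at 159 CPM in high glucose and 137 in galactose (ratio 0.863, 0.702 to 1.06). Taldo1 lost its call at 1.45 with spike-in scaling, 1.47 with equal weight per well and 1.38 in wells of matched depth, and Pdp1 lost its call at 0.478 to 0.809 in wells of matched depth, without high glucose row I or L and without galactose row G.

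Genes of mitochondrial respiration and translation stood higher in galactose and in low glucose than in high glucose. Of 68 measured nuclear genes of the respiratory chain, 19 were higher, 0 lower and 49 neither, and 62 had a ratio above 1. Their summed level was 6623 CPM in high glucose, 8263 in galactose and 8262 in low glucose. The sums of plate rows were 6426 to 6775 CPM in high glucose and 7837 to 8945 in galactose, without overlap. Over all genes of at least 10 CPM the medians were -0.01, -0.04 and 0.02 (log2) for galactose against high glucose, low against high glucose and galactose against low glucose. For this list they were 0.37, 0.40 and -0.00 in the same order. The members whose interval lay farthest from 1 were Atp5g3, the rotor ring of ATP synthase, at 185 CPM in high glucose, 388 in galactose and 377 in low glucose (ratio 2.10, 1.77 to 2.50), and Ndufs4, a subunit of complex I, at 9.01 CPM in high glucose, 31.4 in galactose and 28.3 in low glucose (ratio 3.49, 1.67 to 8.42). The catalytic core of ATP synthase was not called: Atp5b was at 1097 CPM in high glucose and 954 in galactose (ratio 0.870, 0.805 to 0.940) and Atp5a1 at 606 CPM in high glucose and 607 in galactose (ratio 1.00, 0.905 to 1.11). The median of the list was 0.16 with scaling by spike-ins. Ndufs4 moved to 5.48 with equal weight per well, 6.06 in wells of matched depth and 5.74 without high glucose row K.

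Of 53 measured mitochondrial ribosomal proteins, 14 were higher and 0 lower, with row sums of 2055 to 2742 CPM in high glucose and 3037 to 3371 in galactose. Mrpl36 was at 27.0 CPM in high glucose, 66.3 in galactose and 63.4 in low glucose (ratio 2.45, 1.58 to 3.96) and Mrps2 at 72.1 CPM in high glucose, 129.7 in galactose and 105 in low glucose (ratio 1.80, 1.36 to 2.40). The tricarboxylic acid cycle had 3 higher and 0 lower of 16 measured genes and medians of 0.28, 0.30 and -0.04 in the same 3 comparisons. Ogdh, of the oxoglutarate dehydrogenase complex, was at 113 CPM in high glucose, 186 in galactose and 171 in low glucose (ratio 1.65, 1.32 to 2.08). Of the 13 measured genes of the mitochondrial genome, mt-Nd1 (ratio 1.53, 1.44 to 1.62) and mt-Rnr1 (750.3 CPM in high glucose and 1128 in galactose) were higher, and the row sums of the list overlapped (11605 to 21610.5 against 13775 to 21500.5 CPM). Regulators of mitochondrial biogenesis had 0 higher and 1 lower of 11; the lower one was Tfb2m, a factor of mitochondrial transcription, at 100.3 CPM in high glucose, 53.1 in galactose and 55.9 in low glucose (ratio 0.529, 0.396 to 0.709). Mrpl36 moved to 5.09 after thinning, and Ogdh lost its call at 1.42 with spike-in scaling and 1.39 with equal weight per well. mt-Nd1 lost its call at 1.23 to 1.48 with spike-in scaling, with equal weight per well, without high glucose row G, I or L and without galactose row J, and mt-Rnr1 lost its call at 1.24 to 1.49 with spike-in scaling, with equal weight per well, in wells of matched depth, without wells holding markers of other cells, without high glucose row H, I, K or L and without galactose row G or H. Tfb2m moved to 0.0579 after thinning.

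In acetyl-CoA supply 2 of 5 measured genes were called, both higher in galactose. Among acetyltransferases and acetyl-lysine readers 3 of 13 were called, all lower. Medians of the first list were 0.42, 0.35 and 0.05 (log2) for galactose against high glucose, low against high glucose and galactose against low glucose. Those of the second were -0.17, -0.18 and 0.01, so that low glucose stood with galactose in both lists. The 0.42 of the first list became 0.09 in wells of matched depth. Of 5 measured genes of acetyl-CoA supply, Acat1, a mitochondrial thiolase (16.9 CPM in high glucose, 42.7 in galactose and 43.2 in low glucose, ratio 2.53, 1.45 to 4.71), and Slc25a1, the citrate carrier (41.7 CPM in high glucose, 66.8 in galactose and 53.6 in low glucose, ratio 1.60, 1.11 to 2.37), were higher. Acly, which splits citrate into acetyl-CoA in the cytosol, was at 59.7 CPM in high glucose and 80.1 in galactose (ratio 1.34, 0.978 to 1.86) and was not called, and Acss2, which makes acetyl-CoA from acetate, had 1 count and 7 counts. Of 13 measured acetyltransferases and acetyl-lysine readers, 3 were lower and 0 higher, and the median of -0.17 turned to 0.00 with equal weight per well. Crebbp (CBP), an acetyltransferase, was at 276 CPM in high glucose, 176 in galactose and 165 in low glucose (ratio 0.637, 0.540 to 0.753), and the reader Brd2 at 589 CPM in high glucose, 356 in galactose and 375 in low glucose (ratio 0.604, 0.539 to 0.678), with rows apart for Brd2. Ep300 (ratio 0.842, 0.678 to 1.05) and Kat2a (ratio 1.06, 0.804 to 1.40) were not called. No deacetylase or sirtuin was called among 8 measured, and Sirt1, a deacetylase that depends on NAD, was at 125 CPM in high glucose and 108 in galactose (ratio 0.864, 0.685 to 1.10). Acat1 lost its call at 4.63 after thinning and 1.58 in wells of matched depth, and Slc25a1 lost its call at 0.810 to 1.68 with spike-in scaling, after thinning, in wells of matched depth and without galactose row G. Crebbp lost its call at 0.700 with TMM scaling and 0.676 with median-of-ratios scaling, and Brd2 lost its call at 0.920 in wells of matched depth.

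Among markers of quiescence, 5 of 16 were lower in galactose, 1 higher and 10 neither, with medians of -0.47, -0.49 and -0.08 for galactose against high glucose, low against high glucose and galactose against low glucose. Spry1, an inhibitor of FGF signalling that quiescent stem cells need, was at 128 CPM in high glucose, 71.7 in galactose and 66.3 in low glucose (ratio 0.558, 0.434 to 0.720), with rows apart (104 to 158 against 41.7 to 94.9 CPM). Meg3, a long noncoding RNA, was at 32.7 CPM in high glucose, 3.93 in galactose and 6.92 in low glucose, and Apoe at 57.5 CPM in high glucose, 12.3 in galactose and 12.1 in low glucose, against 605 and 591 CPM in the freshly isolated wells of plate 1. Pax7, the defining factor of muscle stem cells, was at 56.3 CPM in high glucose, 66.3 in galactose and 54.8 in low glucose (ratio 1.18, 0.845 to 1.66), Vcam1 at 48.4 CPM in high glucose and 50.1 in galactose (ratio 1.03, 0.718 to 1.51) and Cd34 at 281 CPM in high glucose and 258 in galactose (ratio 0.919, 0.789 to 1.07). None of these 3 was called. The regulators of the myoblast state were close to level, with Myod1 at 705 CPM in high glucose, 871 in galactose and 801 in low glucose (ratio 1.24, 1.13 to 1.36) and Myf5 at 286 CPM in high glucose, 366 in galactose and 369.6 in low glucose (ratio 1.28, 1.11 to 1.48). The list of activated cells and myoblasts had 2 higher and 3 lower of 15; its lower members included Igfbp5, which binds insulin-like growth factors (25.9 CPM in high glucose and 5.89 in galactose, ratio 0.227, 0.103 to 0.476), and Cdon, a receptor that promotes myogenesis (144 CPM in high glucose and 71.2 in galactose, ratio 0.494, 0.387 to 0.631). The Notch pathway, which keeps stem cells quiescent, had 0 higher and 1 lower of 8 measured genes; Notch3 was at 19.2 CPM in high glucose and 7.37 in galactose and at 204 in freshly isolated cells, and its ratio of 0.385 was 0.642 without the wells that held markers of other cell types. Spry1 moved to 0.360 after thinning, and Meg3 moved to no galactose counts after thinning, 0.0770 in wells of matched depth and 0.0738 without galactose row J. Apoe moved to 0.0926 after thinning, and Igfbp5 moved to 0.0874 with equal weight per well and no galactose counts in wells of matched depth. Notch3 lost its call at 0.289 to 0.926 after thinning, in wells of matched depth, without wells holding markers of other cells and without high glucose row H.

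Of the cell cycle lists, S phase genes had 3 higher and 1 lower of 18 and medians of 0.49, 0.22 and 0.24 in the same order of comparisons. Galactose thus had the highest level by the median, although the first value was -0.11 after thinning. Ccnd1 was among them, and Pcna, the sliding clamp of replication, was at 238 CPM in high glucose, 344 in galactose and 327 in low glucose (ratio 1.45, 1.24 to 1.70). Slbp, which binds histone mRNA, was lower (56.3 CPM in high glucose, 22.6 in galactose and 26.5 in low glucose, ratio 0.401, 0.263 to 0.611). Of 7 measured genes of G2 and mitosis, Cks1b was higher (9.01 CPM in high glucose and 25.1 in galactose, ratio 2.78, 1.31 to 6.78), and Gtse1 was at 145 CPM in high glucose, 197 in galactose and 149.9 in low glucose, above low glucose at 1.32 (1.12 to 1.55) times its level. The summed level of these 7 genes went the other way, at 817 CPM in high glucose, 706 in galactose and 608 in low glucose. Their median log2 ratio of 0.23 to high glucose became -0.13 for members of at least 50 CPM. The p53 targets and cell cycle inhibitors had 1 higher and 2 lower of 20. Cdkn1a, the inhibitor p21, did not differ detectably, at 1983 CPM in high glucose, 1981 in galactose and 1956 in low glucose (ratio 0.999, 0.944 to 1.06), Mdm2, which degrades p53, was at 1507 CPM in high glucose, 1114 in galactose and 1022 in low glucose (ratio 0.739, 0.690 to 0.791), and Btg2 at 194 CPM in high glucose and 105 in galactose (ratio 0.540, 0.440 to 0.664). Slbp lost its call at 0.562 in wells of matched depth, and Cks1b lost its call at 1.41 with equal weight per well and 3.18 in wells of matched depth. Btg2 lost its call at 0.915 in wells of matched depth.

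Of the 39 lists, immediate early genes and heat shock chaperones had the lowest medians for galactose against high glucose. Of 24 immediate early genes, which handling and growth factors switch on within minutes, 13 were lower, 1 higher and 10 neither, with medians of -0.67, -0.65 and -0.04. Fosb was at 65.3 CPM in high glucose, 14.7 in galactose and 16.7 in low glucose (ratio 0.226, 0.140 to 0.356) and Nr4a3 at 37.2 CPM in high glucose, 6.88 in galactose and 4.04 in low glucose (ratio 0.185, 0.0915 to 0.355), with 546 and 222 CPM in the freshly isolated wells of plate 1. Fosl1 (1.11) and Klf6 (0.895), the members with the most counts, were close to 1. Cytosolic heat shock chaperones had 2 higher and 7 lower of 17 and medians of -0.60, -0.61 and -0.05. Beside Hspa1a, Hspa1b and Hspa8, the HSP90 genes Hsp90ab1 (ratio 1.17, 1.12 to 1.23) and Hsp90aa1 (ratio 0.865, 0.821 to 0.912) differed little. Within plate 2 both lists were level, with medians of -0.04 and -0.05 for galactose against low glucose. Fosb moved to 0.0771 after thinning and 0.350 in wells of matched depth, and Nr4a3 lost its call at 0.309 after thinning and 0.533 in wells of matched depth.

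Stress genes outside these lists were mixed. Chaperones of the endoplasmic reticulum had 1 higher and 2 lower of 17, with Hspa5 (BiP) at 789 CPM in high glucose, 611 in galactose and 563 in low glucose (ratio 0.775, 0.706 to 0.851), Hsp90b1 at 101 CPM in high glucose and 57.5 in galactose (ratio 0.567, 0.427 to 0.755) and Dnajb9 at 73.2 CPM in high glucose and 31.9 in galactose (ratio 0.436, 0.304 to 0.625), the last at 1.06 in wells of 5000 to 15000 counts. The integrated stress response and amino acid synthesis had 3 higher and 2 lower of 29, with a median of 0.16 that became -0.05 with scaling by spike-ins. Its regulators Atf4 (ratio 1.05, 0.982 to 1.12) and Ddit3 (ratio 0.774, 0.596 to 1.01) and the asparagine synthetase Asns (ratio 1.12, 0.830 to 1.53) were not called. Psat1, which makes serine, was higher at 153 CPM in high glucose, 298 in galactose and 293 in low glucose (ratio 1.94, 1.61 to 2.36), and Sesn2, a leucine sensor, lower at 48.4 CPM in high glucose, 17.7 in galactose and 25.4 in low glucose (ratio 0.365, 0.228 to 0.582). Antioxidant enzymes and metallothioneins had 8 higher and 1 lower of 27 and medians of 0.39, 0.33 and 0.02. Txn1, thioredoxin, was at 217 CPM in high glucose, 417 in galactose and 427 in low glucose (ratio 1.92, 1.64 to 2.25), with rows apart (199.9 to 234 against 379.6 to 468 CPM), Prdx5, a peroxiredoxin, at 219.7 CPM in high glucose, 372 in galactose and 336 in low glucose (ratio 1.69, 1.44 to 1.99), and Hmox1, heme oxygenase, at 1653 CPM in high glucose, 2461 in galactose and 2349 in low glucose (ratio 1.49, 1.40 to 1.58). Psat1 lost its call at 1.41 with equal weight per well, and Sesn2 lost its call at 0.715 in wells of matched depth. Prdx5 lost its call at 1.46 with spike-in scaling and 1.33 in wells of matched depth.

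Of the 39 lists, hypoxia genes had the lowest median within plate 2. They had 0 higher and 3 lower of 15, with medians of -0.02, -0.01 and -0.23; the first became 0.11 with TMM scaling. Ndrg1, a gene that low oxygen and stress induce, was at 288 CPM in high glucose, 99.7 in galactose and 138 in low glucose, with ratios of 0.346 (0.286 to 0.417) to high glucose and 0.724 (0.597 to 0.876) to low glucose. P4ha1, a collagen prolyl hydroxylase, was at 48.4 CPM in high glucose, 24.6 in galactose and 44.4 in low glucose, with ratios of 0.507 (0.330 to 0.781) and 0.553 (0.380 to 0.800). Vegfa (ratio 0.759, 0.642 to 0.899) and Bnip3l (ratio 0.772, 0.642 to 0.931) were not called. In galactose against low glucose, 2 of the 15 were called lower and 4 had an interval under 1. Over all genes of at least 50 CPM, 0.513% were called in either direction in that comparison and 6.1% had an interval under 1. The list members start at 10 CPM, so these shares are only a rough background. Ndrg1 moved to 0.659 in wells of matched depth, and P4ha1 lost its call at 0.963 in wells of matched depth.

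Genes of the actin cytoskeleton had medians of 0.31, 0.31 and 0.07 (log2) in the 3 comparisons, above 0 against both glucose media. Of 28 measured genes of actin and adhesion, 8 were higher and 1, Tagln, was lower, with row sums of 19546 to 22869 CPM in high glucose and 25302 to 28429.6 in galactose. Cfl1, cofilin, which severs actin filaments, was at 2671 CPM in high glucose, 4445 in galactose and 4295 in low glucose (ratio 1.66, 1.59 to 1.74), and Actb at 4577 CPM in high glucose and 4972 in galactose (ratio 1.09, 1.05 to 1.13). In galactose against low glucose, 11 of the 28 had an interval above 1 and 0 below, but only 1 was called. The summed level of the 28 was 1.05 times that in low glucose. Over all genes of at least 50 CPM, a higher minimum than that of the lists, 6.49% had an interval above 1 and 6.1% below. Intervals are narrower for genes with more counts, so these shares are only a rough background. Of 70 cytosolic ribosomal proteins, 9 were higher and 0 lower, beside the background of 9.46% and 12.1%, and 58 had a ratio above 1. The medians were 0.25, 0.33 and -0.06 in the 3 comparisons, beside -0.01, -0.04 and 0.02 over all genes of at least 10 CPM. The first median of the list was 0.04 with scaling by spike-ins. Row sums were 29026 to 32563 CPM in high glucose and 33251 to 43855 in galactose, without overlap. Rps25 was at 149.8 CPM in high glucose, 310.0 in galactose and 255 in low glucose (ratio 2.07, 1.71 to 2.51). Rplp0 went the other way, at 2840.2 CPM in high glucose and 2491 in galactose (ratio 0.877, 0.836 to 0.920). Many processed pseudogenes copy these genes, so their counts are uncertain. In galactose against low glucose, 9 of the 70 had an interval below 1 and 1 above, beside the same shares of 6.1% and 6.49% over all genes. In that comparison 0 of the 70 were called, and the ratio of their summed levels was 0.966. Cfl1 lost its call at 1.43 with spike-in scaling.

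Matrix genes went both ways, with 4 higher and 4 lower of 15: Sparc, a collagen-binding protein, was at 129.6 CPM in high glucose, 270.2 in galactose and 190.3 in low glucose (ratio 2.09, 1.70 to 2.57), opposite to Col3a1 and Timp3. Translation factors (2 higher and 3 lower of 31), ribosome biogenesis (3 higher and 1 lower of 29) and the proteasome (3 higher and 1 lower of 33) had shares of calls near or under the background. Eif5a, the factor that carries hypusine, was higher (2017 CPM in high glucose, 3051 in galactose and 2837 in low glucose, ratio 1.51, 1.43 to 1.60), and Eif4g1, the scaffold of cap-dependent initiation, lower (253 CPM in high glucose, 141 in galactose and 141 in low glucose, ratio 0.558, 0.467 to 0.667). Lysosomal and autophagy genes had 2 higher and 2 lower of 27, with Gabarap higher (ratio 1.57, 1.38 to 1.80) and Hexa lower (ratio 0.478, 0.344 to 0.665). The lipid lists were fatty acid oxidation (3 higher and 1 lower of 18), fatty acid synthesis (0 higher and 1 lower of 9) and cholesterol synthesis (3 higher and 0 lower of 19). The last had medians of 0.12, -0.23 and 0.24. The first of them became -0.09 with scaling by spike-ins and -0.14 for members of at least 50 CPM. The summed level of the cholesterol list was 621 CPM in high glucose, 720 in galactose and 631 in low glucose. Its higher members included Msmo1 (96.9 CPM in high glucose, 147 in galactose and 121 in low glucose, ratio 1.52, 1.19 to 1.95). Glycogen and hexosamine genes had 2 higher and 1 lower of 12, with Gnpnat1 higher (ratio 2.37, 1.60 to 3.62) and Gfpt2 lower (ratio 0.202, 0.0963 to 0.404). Interferon and antigen presentation genes had 2 higher and 0 lower of 8, FGF and growth factor signalling 3 higher and 2 lower of 17, and contractile genes 1 higher and 2 lower of 4. Sparc lost its call at 1.38 with equal weight per well and 1.03 after thinning, and Eif5a lost its call at 1.30 to 1.499 with spike-in scaling, in wells of matched depth, without high glucose row G, H or J and without galactose row G or J. Gabarap lost its call at 1.35 with spike-in scaling, 1.36 in wells of matched depth and 1.499 without high glucose row K, and Msmo1 lost its call at 1.23 to 1.49 with spike-in scaling, with equal weight per well, in wells of matched depth, without high glucose row G, H or K and without galactose row G or J. Gnpnat1 lost its call at 1.76 in wells of matched depth, and Gfpt2 lost its call at no galactose counts after thinning and moved to 0.0920 with equal weight per well and 0.0889 in wells of matched depth.

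**Figure D4:**
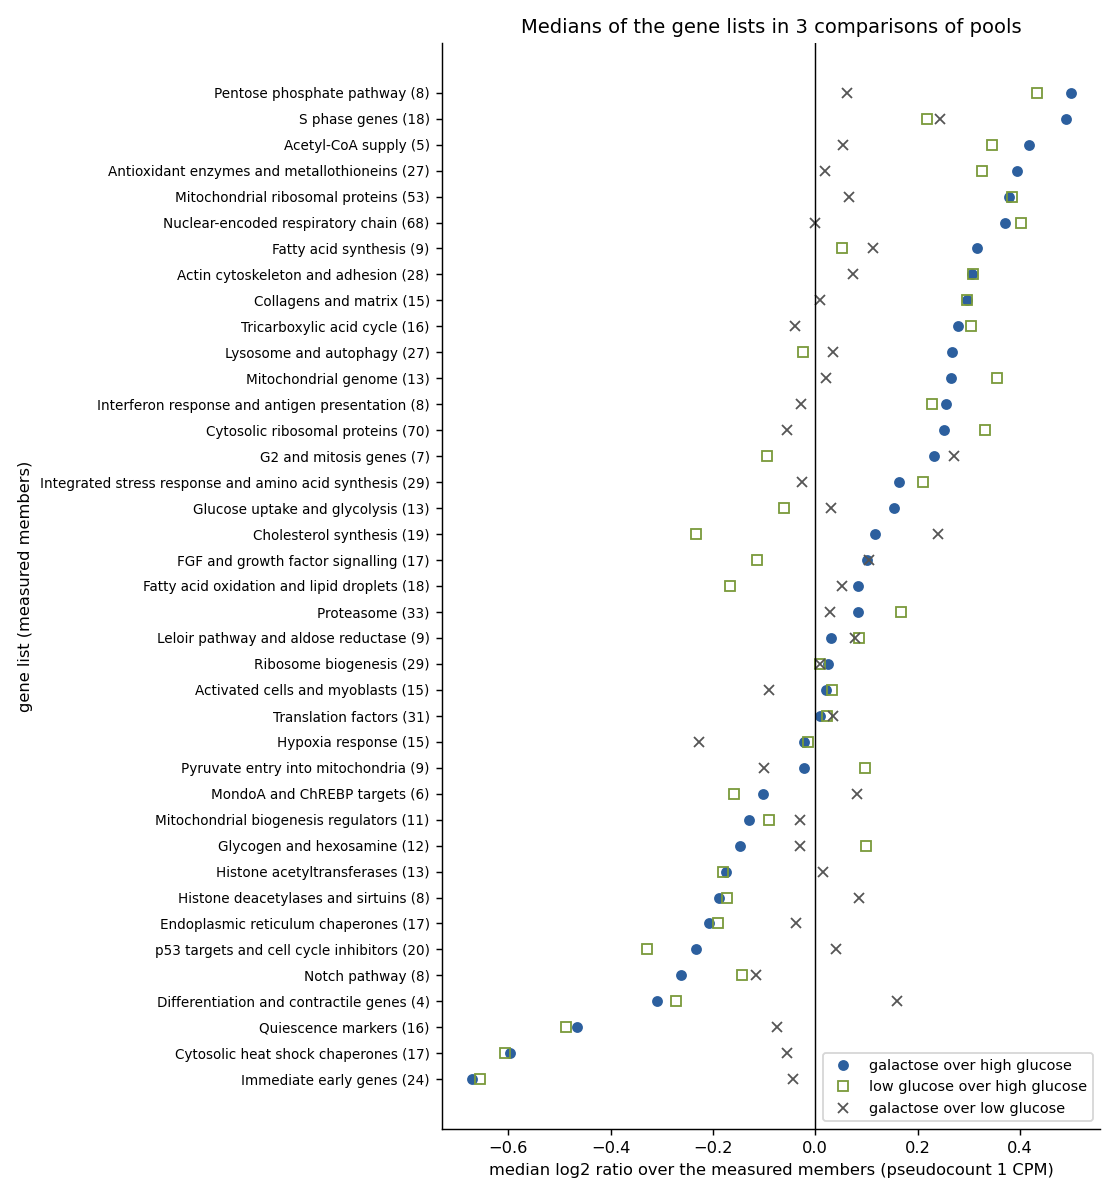
Each line is 1 gene list (measured members in brackets), and the x axis is the median log2 ratio of its members for galactose over high glucose (filled circles), low glucose over high glucose (open squares) and galactose over low glucose (crosses). Circles and squares lie close for most lists, such as the respiratory chain (0.37 and 0.40) and the immediate early genes (-0.67 and -0.65), whereas S phase genes (0.49 and 0.22) and cholesterol synthesis (0.12 and -0.23) lie apart. The 0.12 of cholesterol synthesis became -0.14 for members of at least 50 CPM.

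Most differences between galactose and high glucose were not shown to exceed the difference that low glucose showed. Of the 437 higher genes, 80 (18.3%) had an interval of galactose against low glucose wholly above 1, 352 (80.5%) an interval that held 1, and 5 an interval below 1. Of the 460 lower genes, 93 (20.2%) went further than low glucose, 366 (79.6%) had an interval that held 1, and 1 fell short. Low glucose itself was called in the same direction for 282 of the 437 higher and 307 of the 460 lower genes. For 57 of the higher and 51 of the lower genes its interval against high glucose held 1. Over all genes of at least 50 CPM, 6.49% had an interval of galactose against low glucose above 1 and 6.1% below 1. The genes were first picked by galactose against high glucose, and a high galactose count raises both ratios. When they were picked by low against high glucose in place of this, 29 of 349 higher and 45 of 396 lower genes went further in galactose, and 24 and 21 stood on the near side. For the higher genes the median ratio was 1.67 for galactose against high glucose, 1.60 for low against high glucose and 1.07 for galactose against low glucose. The corresponding medians of the lower genes were 0.577, 0.616 and 0.897. Leaving out galactose plate row G reduced the 80 to 52, and leaving out row J reduced them to 53. With stricter intervals for both ratios, the genes that went further were 13 of 326 and 22 of 346. Rows of galactose and low glucose were wholly apart for 1 of the 80 and 3 of the 93.

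The 10 named genes that went further upward stood at 1.29 to 1.66 times low glucose. Sparc was at 1.42 (1.24 to 1.63) times low glucose, and its rows had a lowest, median and highest value of 113, 128 and 150.0 CPM in high glucose, 180.3, 246 and 375 CPM in galactose and 122, 183 and 232 CPM in low glucose. Hmga2 stood at 1.30 (1.19 to 1.42) times low glucose, with low glucose rows of 337, 542 and 653 CPM (lowest, median and highest), so that both steps of Hmga2 went upward. Tmsb10, an actin-sequestering thymosin, was at 118 CPM in high glucose, 258 in galactose and 200.1 in low glucose, and Gnptg, a subunit of the enzyme that tags lysosomal proteins, at 56.3 CPM in high glucose, 132 in galactose and 92.8 in low glucose. In 5 other genes low glucose was not shown to differ from high glucose. Msrb3, a methionine sulfoxide reductase, was at 40.6 CPM in high glucose, 68.8 in galactose and 41.5 in low glucose, and Soat1, which esterifies cholesterol, at 58.6 CPM in high glucose, 89.4 in galactose and 61.1 in low glucose. Naa35, of an N-terminal acetyltransferase, was at 50.7 CPM in high glucose, 85.0 in galactose and 58.8 in low glucose, Tmem150a at 63.1 CPM in high glucose, 103 in galactose and 71.5 in low glucose and Ccdc115 at 62.0 CPM in high glucose, 98.2 in galactose and 69.8 in low glucose. For these 5 the low glucose interval against high glucose held 1, and rows of galactose and high glucose overlapped. Ccl2, a chemokine, is not among them, since its ratio to high glucose was 1.07 (0.935 to 1.24). It was at 324 CPM in high glucose, 348 in galactose and 231 in low glucose, 1.51 (1.33 to 1.71) times low glucose, with high glucose row L at 1358 CPM. Without that row the ratio of Ccl2 to high glucose was 2.14. Tmsb10 lost its call at 1.36 after thinning, and Msrb3 lost its call at 1.46 with spike-in scaling, 1.498 with equal weight per well and 1.47 in wells of matched depth. Soat1 lost its call at 0.823 to 1.48 with spike-in scaling, after thinning, in wells of matched depth, without high glucose row I, J, K or L and without galactose row G, and Naa35 lost its call at 1.44 with spike-in scaling and 1.45 in wells of matched depth. Tmem150a lost its call at 1.41 with spike-in scaling, 1.44 in wells of matched depth and 1.49 without high glucose row H, and Ccdc115 lost its call at 1.37 with spike-in scaling, 1.46 with equal weight per well and 0.712 after thinning.

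The 10 named genes that went further downward stood at 0.622 to 0.818 of low glucose. Trib1, a pseudokinase that directs proteins to degradation, was at 171 CPM in high glucose, 63.9 in galactose and 103 in low glucose, with ratios of 0.373 (0.293 to 0.474) to high glucose and 0.622 (0.492 to 0.784) to low glucose. Ifrd1, a coregulator of myoblast differentiation, was at 157 CPM in high glucose, 53.1 in galactose and 83.0 in low glucose, a ratio of 0.639 (0.493 to 0.826) to low glucose. Akr1b3, Ndrg1 and Hspa8, described above, belonged here too, with low glucose between the other media. Kdm3a, a histone demethylase that hypoxia induces, was at 69.9 CPM in high glucose, 46.2 in galactose and 69.2 in low glucose, and Cpeb4, which binds mRNA tails, at 98.0 CPM in high glucose, 63.4 in galactose and 92.8 in low glucose. Ubxn4 was at 113 CPM in high glucose, 64.4 in galactose and 96.3 in low glucose and Srek1, a splicing protein, at 224 CPM in high glucose, 141 in galactose and 191 in low glucose. These 4 were lower in galactose while the low glucose interval against high glucose held 1. CT010467.1 was at 112 CPM in high glucose, 38.8 in galactose and 62.3 in low glucose. Ifrd1 lost its call at 0.555 after thinning, and Kdm3a lost its call at 0.667 to 0.887 with TMM scaling, with median-of-ratios scaling, with equal weight per well, in wells of matched depth, without high glucose row L and without galactose row J, K or L. Cpeb4 lost its call at 0.667 to 0.977 with TMM scaling, with median-of-ratios scaling, in wells of matched depth, without wells holding markers of other cells, without high glucose row H and without galactose row G or I, and Ubxn4 lost its call at 0.678 in wells of matched depth. Srek1 lost its call at 0.668 to 0.694 with TMM scaling, with median-of-ratios scaling, without high glucose row I and without galactose row I.

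Of the genes called in galactose against high glucose, few stood nearer to high glucose in galactose than in low glucose. This choice of genes works against finding them, since both ratios share the galactose counts. Picked by low against high glucose, 24 higher and 21 lower genes stood on the near side. The numbers from the first choice also depended on single plate rows. Cxcl1, a chemokine, was at 146 CPM in high glucose, 74.7 in galactose and 50.7 in low glucose, with 1285 CPM in freshly isolated cells. Its galactose row I was at 198 CPM and the other galactose rows at 23.8 to 94.2 CPM, and without row I there were 0 lower genes of this kind. Without galactose row G the higher genes of this kind were 2. With all rows they were 5, among them mt-Rnr1 (750.3 CPM in high glucose, 1128 in galactose and 1326 in low glucose), Wdr89 (469 CPM in high glucose, 769 in galactose and 849.9 in low glucose), Rps29 (69.9 CPM in high glucose, 119.9 in galactose and 147 in low glucose) and Mt1, a metallothionein (369.5 CPM in high glucose, 589 in galactose and 641 in low glucose). Cxcl1 moved to 0.309 in wells of matched depth and 0.333 without galactose row I, and Wdr89 lost its call at 1.41 with spike-in scaling. Rps29 lost its call at 1.48 with spike-in scaling, and Mt1 lost its call at 1.37 with spike-in scaling and 1.197 in wells of matched depth.

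**Figure D5:**
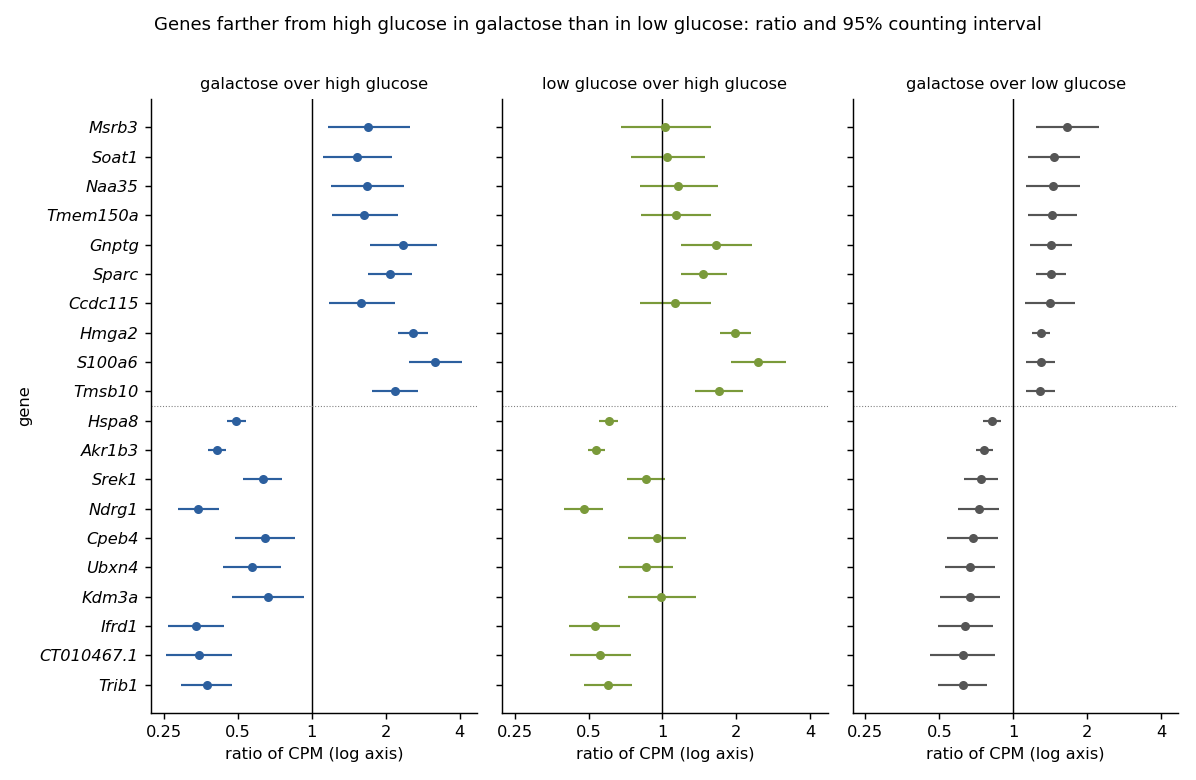
For the 10 higher and 10 lower genes named as going further than low glucose, points are ratios of CPM (x axis, log scale) and bars 95% counting intervals, in 3 comparisons of pools. Intervals of galactose over low glucose (right) leave out 1 by the choice of the genes; low glucose over high glucose (middle) is near 1 for Msrb3 (1.02) and Kdm3a (0.991) and far from it for S100a6 (2.45) and Ndrg1 (0.478).

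Some genes varied among single galactose wells far beyond counting error. After thinning to 2000 counts, with 120 galactose and 108 high glucose wells left, the median ratio of variance to mean over 750 genes was 1.10 in galactose, 1.15 in high glucose and 1.12 in low glucose, against 1 for counting alone. The highest ratio in galactose was that of Lgals3, galectin-3, which binds galactose-bearing sugars, at 3.72 against 4.29 in high glucose, with 0 to 13 counts per galactose well. Lars2, the mitochondrial leucyl-tRNA synthetase, followed at 3.68 (1.92 in high glucose), then the matricellular protein Ccn1 at 3.26 (5.97) and Ccl2 at 2.93 (11.2). Mdm2, which p53 induces, was at 2.81 (1.91) and reached 22 counts in 1 galactose well against a median of 2. Eef1a1 (2.63), mt-Cytb (2.62), Hmox1 (2.53), mt-Rnr2 (2.43) and Cfl1 (2.19) completed the 10 genes. The 2 mitochondrial genes varied more in high glucose, at 5.85 and 14.6. Lgals3 itself was lower in galactose, at 953 CPM in high glucose, 492 in galactose and 546 in low glucose (ratio 0.516, 0.471 to 0.567).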

How the data were processed

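Single muscle stem cells were sorted into 384-well plates and sequenced with a modified CEL-Seq2 protocol, per the labels. The deposited tables give counts per gene and well. The submitters' processing notes name edgeR. The aligner, the genome build and any collapse of molecular identifiers were not given in the sources used here. Each well took its condition from the deposited well sheet. No doublets were called and no p-value was computed.

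From these counts, wells of a medium were summed and scaled to CPM by the total gene count, without spike-ins. Ratios of 2 pools carry exact conditional (Clopper-Pearson) 95% intervals, shares Clopper-Pearson intervals. Intervals cover counting error only. A ratio of at least 1.5 in either direction with an interval that leaves out 1 is a call. Medians of lists use log2(CPM + 1). Thinning draws 1000 counts per well, leaving out shallower wells. Scripts ran on Python 3.11.15 with scipy 1.17.1, and TMM factors came from edgeR 4.0.16. The scripts were tested on simulated data.

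Named genes were, at a mean of at least 50 CPM, the 15 higher and 15 lower with the interval bound farthest from 1, up to 10 each way beyond low glucose and 5 short of it, per list the 2 with most counts plus the 2 with the farthest bound, a fixed set of genes of identity and sugar use, and the 10 most variable in galactose wells. Genes with no symbol and those with Gm numbers, Rik or pseudogene names were only counted. CT010467.1, also without a settled symbol, lies outside these classes and was named. The members and lists were chosen with earlier results of these data known. Some genes that meet the rule are not reported here. Of 939 listed genes looked up, 3 matched by an older symbol.

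Alternatives were TMM, median-of-ratios and spike-in scaling, equal weight per well, thinning, wells of 5000 to 15000 counts, other minimums, and leaving out each plate row. The spike-in minimum of 150 counts and the comparison of spike-ins between high glucose and freshly isolated wells were added after seeing the data.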

Additional observations from a re-analysis of the deposited data

How the results depend on the processing

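No paired analysis was possible because each plate is 1 library with no replicate numbers. Genes at least 2-fold higher and lower in galactose than in high glucose were 131 and 69 with TMM scaling, 31 and 248 with spike-in scaling, 355 and 365 after thinning, 356 and 540 at a minimum of 10 CPM and 3722 and 4425 with no minimum, and 72 to 88 and 108 to 131 when 1 plate row was left out. Genes beyond low glucose were 122 and 60 with TMM scaling, 49 higher with spike-in scaling, 22 and 16 after thinning, 28 and 53 in wells of 5000 to 15000 counts, 13 and 22 with stricter intervals, 29 and 45 when chosen by low glucose, and 52 to 96 and 73 to 97 with 1 row left out. Ratios turned for Hspa1a (1.26) and Dnajb9 (1.06) in the wells of 5000 to 15000 counts, and for Soat1 (0.823), Ccdc115 (0.712), Tpi1 (0.463) and Slc25a1 (0.810) after thinning, which leaves fewer counts. Of 112 named genes called, 32 kept the call in every setting, among them Ass1, Lasp1, Hmga2, Gpx3, Hspa1b, Akr1b3, Ndrg1 and Spry1; 61 lost it after thinning, 37 in the depth window and 24 with spike-in scaling. The cause was not tested. Mitochondrial genome genes have no value with those genes left out. The medians of the quiescence, pentose phosphate, tricarboxylic acid, respiratory chain, mitochondrial ribosome, antioxidant, heat shock, immediate early and actin lists kept their sign in every setting. Genes under 10 CPM were left out of the lists for lack of depth, and 1 library per medium leaves the spread between cultures unknown.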
